A study of Mus musculus with 57 samples.

Results

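Matrix proteases of the matrix metalloproteinase (Mmp) and ADAMTS families and the tissue inhibitors of metalloproteinases (Timp) were followed across hearts of mice treated with doxorubicin (Doxo) and nicotinamide mononucleotide (NMN). Members were all gene symbols present in both count tables that consist of Mmp, Timp or Adamts and a number, with an optional letter for Mmp. The rule gave 46 genes, namely 23 Mmp, 4 Timp and 19 Adamts genes, of the 25416 genes in both tables.

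All 57 hearts came from male C57BL6/J mice. In the acute study, mice bought at 9 weeks of age received either saline (Ctrl, 14 hearts), 1 i.p. injection of 20 mg/kg Doxo (Doxo, 13 hearts), or the same injection with 180 mg/kg/day NMN i.p. from 5 days before Doxo onwards (Doxo-NMN, 13 hearts), and hearts were taken at day 5. In the chronic study, mice of 14 to 16 weeks received PBS (Ctrl, 5 hearts), 5 injections of 4 mg/kg Doxo for a cumulative 20 mg/kg (Doxo, 6 hearts), or these injections together with NMN at 500 mg/kg/day, dissolved in the water they drank, from 5 days before the first injection (Doxo-NMN, 6 hearts), and hearts were taken at day 60. Only mice alive at sampling gave a heart, neither study had a group given NMN without Doxo, and vendor, site, age, sequencing and regimen differed together between the studies.

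MMPs are zinc-dependent endopeptidases that are made as inactive proenzymes and cut collagens, laminins, fibronectin, growth factors and their binding proteins. ADAMTS proteases carry thrombospondin repeats that hold them in the matrix, and different members cut the hyalectan proteoglycans such as versican, trim procollagens, or act on cartilage oligomeric matrix protein (COMP), fibrillin microfibrils and von Willebrand factor. TIMPs bind the active site of MMPs, and Timp3, which is bound to the matrix, also inhibits several ADAMTS enzymes. In the heart these enzymes are made by fibroblasts, endothelial cells, leukocytes and cardiomyocytes, and they are known for remodelling of the interstitium after injury.

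Poly(A) RNA of whole hearts was counted per gene, with 32409622 to 52102850 counts per acute and 17769886 to 23862287 per chronic heart. In bulk tissue, fewer cells of a type and less RNA per cell cannot be told apart. The acute Doxo heart of replicate 6 lay within the Ctrl range for 31 of the 35 tested members. That count was not taken for the other Doxo hearts or over all genes. Replicate 6 stood apart in its summed red cell markers, at 338 CPM against 1.19 to 3.85 CPM in the other 12 Doxo hearts. On this sum it lay below every Ctrl heart (437 to 4311 CPM). Of all pairs of acute libraries, Doxo replicate 6 and Ctrl replicate 12 had the lowest chi-square per gene between their counts. That measure grows with the number of counts, and Ctrl replicate 12 had the fewest of all acute hearts. Doxo replicate 6 was kept with its label, and values without it are given where they matter. Acute hearts also split by the atrial gene Myl4: above 100 CPM in 8 of 14 Ctrl, 5 of 13 Doxo and 4 of 13 Doxo-NMN hearts, and below it in all 17 chronic hearts. Levels are CPM, which are counts scaled to the size of each library after TMM normalization, and 3 counts, taken as the floor, corresponded to 0.0576 to 0.0926 CPM of the acute totals.

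Of the Mmp genes, 10 stand in a cluster on chromosome 9 (GRCm38, chr9:7272514-7699585, 427 kb) in the order Mmp7, Mmp20, Mmp27, Mmp8, Mmp10, Mmp1a, Mmp3, Mmp1b, Mmp12 and Mmp13, read from the high to the low coordinate. RefSeq promoter windows of GRCm38.p6, 250 bases before and 50 bases after a transcription start, were found for 32 of the 46 members, and 35 windows were read. No window was given for Adamts4, Adamts5, Adamts6, Adamts7, Adamts8, Adamts10, Adamts15, Adamts16, Adamts19, Mmp2, Mmp9, Mmp16, Mmp17 and Mmp19. The letters TGANTCA, with N for any base, take in the AP-1 binding motifs TGACTCA and TGAGTCA but are wider than these. They were searched on both strands and stood in 7.81% of 32851 RefSeq windows of the genome. They were found in windows of 8 members, all of them in the chromosome 9 cluster (Mmp1a, Mmp1b, Mmp3, Mmp7, Mmp10, Mmp12, Mmp13 and Mmp20), and in none of the 22 members outside the cluster that had a window. Mmp20 held TGAATCA, and the others held TGACTCA or TGAGTCA. The 100 bases before the start are shown for the 4 cluster genes that were called in the acute hearts (Mmp13, Mmp3, Mmp8 and Mmp27), which differ in the motif, and for the members outside the cluster that had a window and, of those, the smallest adjusted p in acute Doxo vs. Ctrl in each direction (Adamts1 upwards, Mmp15 downwards). Each is written 5′ to 3′ on the strand of the gene, and capitals mark TGANTCA.
Mmp13 (chr9:7272414-7272513, plus strand): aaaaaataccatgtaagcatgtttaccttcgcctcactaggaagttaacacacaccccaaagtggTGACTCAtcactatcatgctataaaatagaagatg
Mmp3 (chr9:7445722-7445821, plus strand): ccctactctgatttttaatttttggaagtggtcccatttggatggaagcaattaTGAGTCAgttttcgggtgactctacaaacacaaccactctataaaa
Mmp8 (chr9:7558329-7558428, plus strand): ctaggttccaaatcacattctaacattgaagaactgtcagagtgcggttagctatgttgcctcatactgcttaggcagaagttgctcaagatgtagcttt
Mmp27 (chr9:7571296-7571395, plus strand): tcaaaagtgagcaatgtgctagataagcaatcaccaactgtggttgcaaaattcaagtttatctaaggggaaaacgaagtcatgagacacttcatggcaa
Adamts1 (chr16:85803114-85803213, minus strand): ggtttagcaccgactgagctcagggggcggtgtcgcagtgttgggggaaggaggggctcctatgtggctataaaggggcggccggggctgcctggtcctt
Mmp15 (chr8:95352196-95352295, plus strand): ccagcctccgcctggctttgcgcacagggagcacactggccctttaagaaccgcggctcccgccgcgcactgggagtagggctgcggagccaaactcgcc
The match began 35 bases before the start in Mmp13 and 46 bases before it in Mmp3, and neither Mmp8 nor Mmp27 held one in its 300 bases. The share of G and C in the 100 bases was 38% in both Mmp13 and Mmp3, 42% in Mmp8, 39% in Mmp27, 65% in Adamts1 and 69% in Mmp15. Across the windows, it ran from 38% to 51% (median 41%) in the cluster and from 49% to 92% (median 69%) outside it. These letters describe sequence only, and Mmp13, Mmp3, Mmp8 and Mmp27 changed in different directions in the acute hearts.

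In untreated hearts the inhibitors and a few proteases held most of the members' RNA. Per kb of exon, the acute Ctrl order was Timp2 at 30.5 ± 7.53, Timp3 at 21.5 ± 2.92, Mmp15 at 20.8 ± 1.64, Mmp2 at 14.2 ± 1.70, Timp4 at 8.48 ± 2.12 and Adamts1 at 8.16 ± 1.32 CPM per kb (SD, n = 14). Neighbours in this order overlapped between hearts except that all Mmp15 values lay above all Mmp2 values, and all Adamts1 values above those of Adamts10, the next gene at 3.95 CPM per kb. In the chronic Ctrl hearts the membrane-type protease Mmp15 came first, at 32.1 ± 5.85 CPM per kb (SD, n = 5), with all 5 hearts above Timp2 at 21.2 ± 1.57 CPM per kb, and all Timp2 values lay above Mmp2 at 15.1 ± 0.939 CPM per kb. The studies were normalized separately, so only the order within each is compared. The acute order was not split by Myl4. In acute Ctrl hearts Timp2 was at 87.9 ± 7.59 CPM below and 142 ± 11.8 CPM above 100 CPM of Myl4 (SD), and all chronic hearts lay below.

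**Figure D1:**
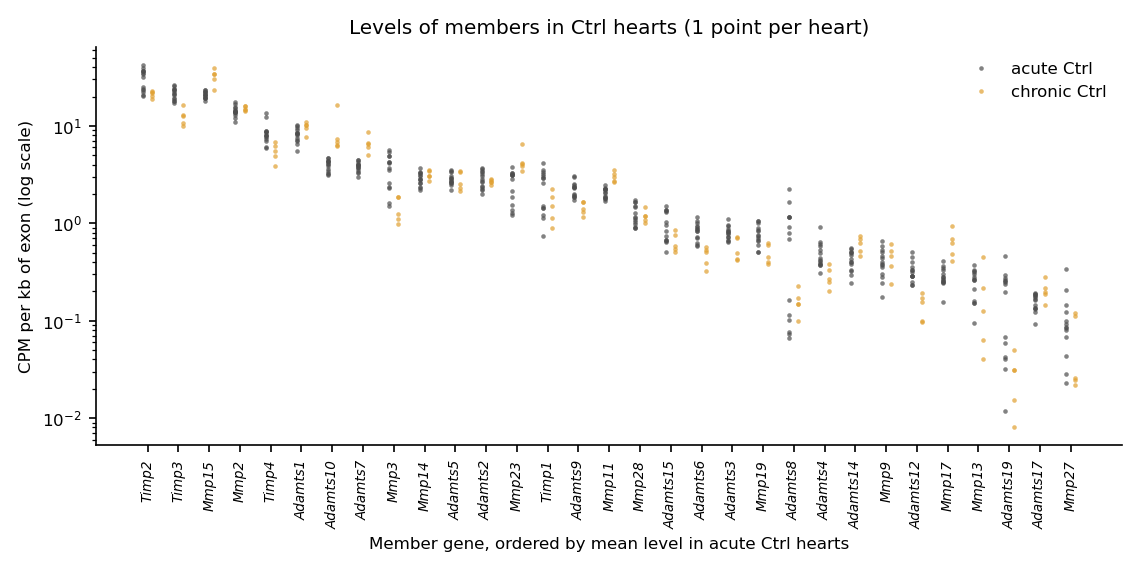
Level of the members in each Ctrl heart (CPM per kb of exon, log axis), acute and chronic studies shown separately, with a point for each heart. Timp2, Timp3, Mmp15 and Mmp2 lie highest in both studies, between 12.6 and 32.1 CPM per kb on average.

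Of the 46 members, 35 passed the low-count filter in the acute study, and 31 did so in the chronic one. Not tested in either were Adamts13, Adamts16, Adamts18, Mmp1a, Mmp1b, Mmp7, Mmp10, Mmp20, Mmp21, Mmp24 and Mmp25, and Mmp8, Mmp13, Mmp16 and Mmp27 were not tested in the chronic study. Mmp1b was at 0 in every heart, and Mmp1a, an annotated polymorphic pseudogene in this strain, had 1 count in a Doxo heart. Summed over the acute hearts of a group, Mmp10, a stromelysin, had 32 counts in Ctrl, 78 in Doxo and 33 in Doxo-NMN. Mmp25, a leukocyte membrane-type protease, had 91, 168 and 83 counts in the same order, and Adamts18 had 8, 64 and 42. Over all acute hearts these genes did not pass the low-count filter. Mmp25 did pass in the fits on hearts below 100 CPM of Myl4. It was called there in Doxo vs. Ctrl (1.79 ± 0.607, SE, adjusted p = 0.0164 by edgeR) and in Doxo-NMN vs. Doxo (−1.67 ± 0.517, SE, adjusted p = 0.0153). Both calls share the same 8 Doxo hearts, with a median of 0.430 CPM against 0.125 (Ctrl) and 0.144 (Doxo-NMN). A group with a high level can carry a gene past the filter, so no conclusion is drawn from these calls. Above 100 CPM of Myl4 it was not tested, and its means were 0.177 (Ctrl), 0.153 (Doxo) and 0.135 CPM (Doxo-NMN).

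The first comparison asked what a high Doxo dose did to these genes by day 5. Among the 35 tested members, 21 passed in Doxo vs. Ctrl, of which 11 rose and 10 fell, at an adjusted p under 0.05 by edgeR's quasi-likelihood test with Benjamini-Hochberg adjustment and a fold change of at least 1.5. In the same comparison 30.1% of the 14240 genes tested were called, 14.7% higher and 15.4% lower. By adjusted p alone, 27 members passed, against 68.1% of all genes. The median log2 fold change over the tested members was −0.34, against −0.00157 over all genes. The 11 that rose were Adamts1, Adamts3, Adamts4, Adamts15, Mmp3, Mmp8, Mmp9, Mmp14, Mmp27, Timp1 and Timp3. The 10 that fell were Adamts7, Adamts8, Adamts9, Adamts10, Adamts12, Adamts19, Mmp13, Mmp15, Mmp16 and Mmp23. No member separated all Doxo from all Ctrl hearts, where 0.906% of all genes did. Without Doxo replicate 6, Adamts1 and Adamts3 lay wholly above and Mmp15 wholly below the Ctrl range, where 14.2% of all genes did not overlap.

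**Figure D2:**
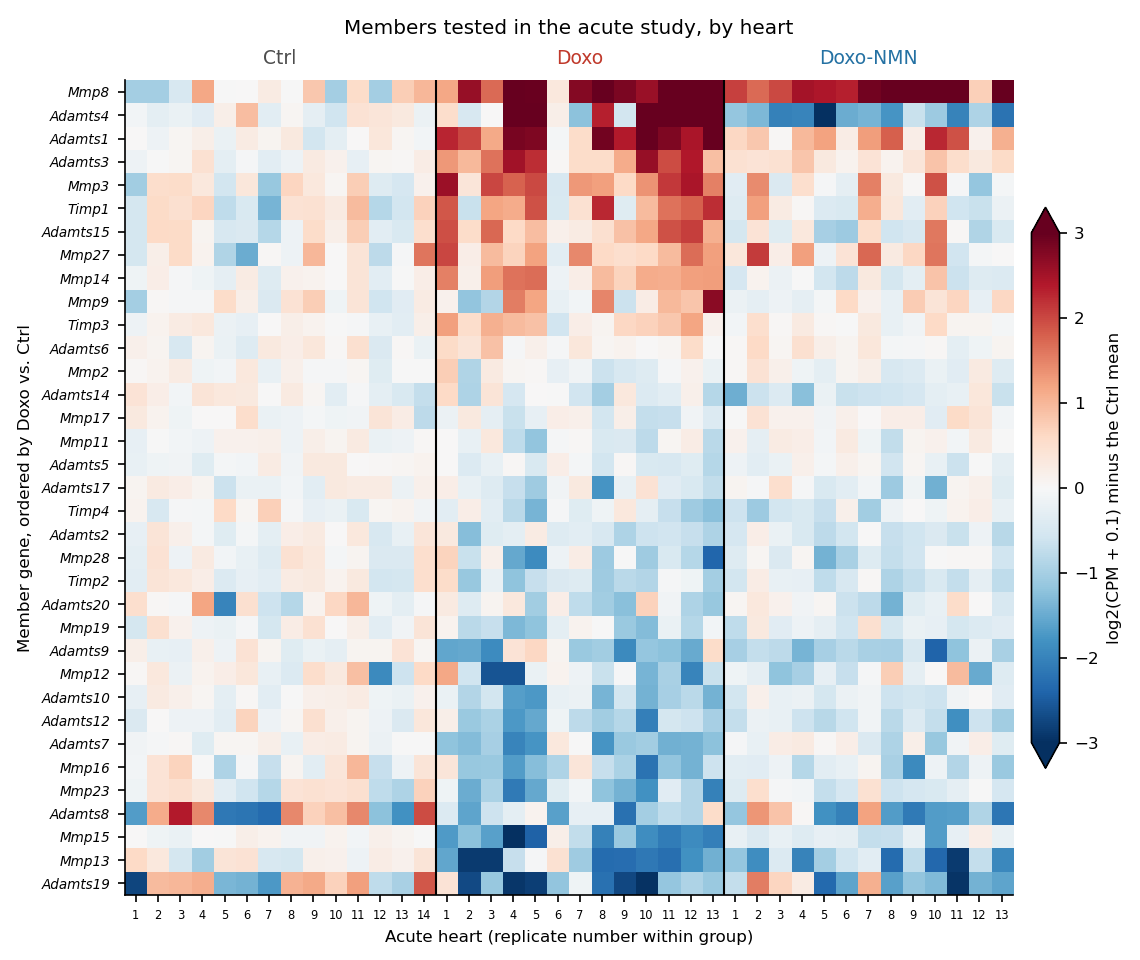
Each column is an acute heart and each line 1 of the 35 tested members, coloured by log2(CPM + 0.1) minus the mean of the Ctrl hearts, with colours ending at 3 in either direction. The Doxo block holds the strongest colours in both directions, Doxo replicate 6 looks like the Ctrl block, and Doxo-NMN lies between them for most called members.

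Among the hyalectan-cutting ADAMTS proteases, 3 of 7 rose and 2 fell. Adamts1 (ENSMUSG00000022893, chr16:85793827-85803113), an inducible protease that cuts versican and aggrecan, had 29.3, 43.8 and 54.5 CPM (lowest, median and highest) in the Ctrl group. Doxo hearts ran over 40.7, 232 and 584 CPM, and hearts with NMN over 44.1, 84.2 and 204 CPM. In Doxo, 12 of 13 hearts lay above the highest Ctrl heart, and the exception was replicate 6. The mean rose from 43.3 ± 6.99 CPM (SD, n = 14) to 255 ± 155 CPM (SD, n = 13), with a log2 fold change of 2.56 ± 0.279 (SE, adjusted p = 9.37e-10). Leaving out replicate 6 gave 2.66.

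Adamts4 (ENSMUSG00000006403, chr1:171250421-171260637), the protease also named aggrecanase 1, spread widely between Doxo hearts. Its lowest, median and highest values were 1.48, 2.08 and 4.40 CPM among Ctrl hearts, 0.913, 11.9 and 121 CPM among Doxo hearts, and 0.129, 0.744 and 1.40 CPM among hearts with NMN. Above the highest Ctrl heart lay 7 of the 13 Doxo hearts, and 1 lay below the lowest. The log2 fold change of Doxo vs. Ctrl was 3.66 ± 0.542 (SE, adjusted p = 2.96e-07), and the SD of Doxo hearts (38.9 CPM) exceeded their mean of 29.9 CPM.

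Adamts15, another hyalectan protease, had 5.22, 9.30 and 15.7 CPM in Ctrl and 10.5, 18.1 and 40.3 CPM in Doxo hearts as lowest, median and highest, and 8 of 13 Doxo hearts exceeded every Ctrl heart. Its log2 fold change was 1.12 ± 0.252 (SE, adjusted p = 0.000173). Adamts9, a protease of versican that has roles in the developing heart, moved the other way, from 34.1 ± 6.08 CPM (SD, n = 14) to 22.7 ± 16.3 CPM (SD, n = 13), but the Doxo hearts reached from 8.92 to 52.1 CPM, with 9 below and 2 above the Ctrl range. That call (−0.59 ± 0.237, SE, adjusted p = 0.0267) rests on the 1.5-fold limit and was lost in 14 of the 40 fits that left out a heart. Adamts8, an ADAMTS protease with antiangiogenic activity, had 3.40 ± 3.15 CPM in Ctrl and 1.27 ± 0.675 CPM in Doxo (−1.42 ± 0.514, SE, adjusted p = 0.0142), with no heart outside the Ctrl range, and its direction depended on the atrial gene level, as described further on. Adamts5, the aggrecanase with the strongest activity in cartilage, passed by adjusted p alone (−0.26, adjusted p = 0.0152), and Adamts20, known for pigment cell development, did not (−0.53).

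Of the procollagen-trimming ADAMTS proteases, Adamts3, which cuts procollagen and the lymphatic growth factor VEGF-C, rose as regularly as Adamts1. The Ctrl hearts had 3.48, 4.36 and 6.002 CPM, the Doxo hearts 4.46, 10.9 and 26.9 CPM and the Doxo-NMN hearts 4.69, 5.83 and 7.95 CPM. Again 12 of 13 Doxo hearts exceeded all Ctrl hearts, and the log2 fold change was 1.67 ± 0.195 (SE, adjusted p = 3.69e-09). Its paralogs gave other values: Adamts2 was at −0.45 (adjusted p = 0.00285, under 1.5-fold) and Adamts14 at −0.20, which did not pass.

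Both proteases that act on COMP fell. Adamts7, known from vascular smooth muscle migration, had 18.6, 24.2 and 28.3 CPM in Ctrl and 6.01, 10.1 and 29.5 CPM in Doxo hearts, with 11 of 13 Doxo hearts below and 1, replicate 6, above the Ctrl range (−1.004 ± 0.180, SE, adjusted p = 7.06e-06). Adamts12 went from 3.54 ± 0.875 to 1.92 ± 0.864 CPM, with 11 of 13 below the Ctrl range (−0.88 ± 0.184, SE, adjusted p = 7.11e-05). Of the proteases tied to fibrillin, Adamts10 fell from 32.6 ± 4.38 to 18.2 ± 6.90 CPM (−0.84 ± 0.138, SE, adjusted p = 1.61e-06), whereas Adamts6 had 0.24 and did not pass. Adamts19, known from heart valve development, fell from 2.50 ± 1.89 to 0.663 ± 0.645 CPM (−1.88 ± 0.530, SE, adjusted p = 0.00198), and Adamts17 (−0.34) did not pass.

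The tested collagenases moved in opposite directions. Mmp8 (ENSMUSG00000005800, chr9:7558456-7568485), the collagenase of neutrophil granules, had counts in 10 of 14 Ctrl hearts, with 0, 0.102 and 0.353 CPM as lowest, median and highest. Doxo hearts had 0.150, 1.33 and 16.4 CPM, with 11 of 13 above every Ctrl heart. The log2 fold change was 4.35 ± 0.6004 (SE, adjusted p = 7.97e-08). It was at 3.57 without Doxo replicate 13, and at 5.19 among hearts with little and 2.94 among hearts with much Myl4, all called. The Ctrl values of Mmp8 lay near the floor of 3 counts. A group with a high level can carry a gene past the filter, so no conclusion is drawn from these calls or their size. Mmp13 (ENSMUSG00000050578, chr9:7272514-7283331), the main interstitial collagenase of rodents, fell from 0.252, 0.710 and 0.997 CPM to 0, 0.106 and 0.897 CPM, with 10 of 13 Doxo hearts below the Ctrl range (−1.66 ± 0.457, SE, adjusted p = 0.00164). For Mmp13 the high group was Ctrl, so the same limit of the filter can apply. Neutrophil markers moved with Mmp8 in Doxo vs. Ctrl: 7 of the 8 listed genes were tested and all 7 were called higher in Doxo. In Doxo-NMN vs. Doxo, neutrophil markers such as Ngp (−3.84) were called lower, while Mmp8 (−0.86) was not called. The summed level of the neutrophil markers ran from 1.79 to 6.81 CPM among Ctrl hearts, from 3.14 to 355 CPM among Doxo hearts and from 4.96 to 32.6 CPM among those with NMN, with no marker at 0 throughout a group. The part of these cells in the rise of Mmp8 was not tested.

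Between the gelatinases, which cut denatured collagen and basement membrane, Mmp2 was not called, with 47.9 ± 5.73 CPM in Ctrl and 45.0 ± 13.7 CPM in Doxo (−0.09 ± 0.116, SE, adjusted p = 0.505). Mmp9, stored in neutrophil granules, was at 0.617, 1.37 and 2.35 CPM in Ctrl and 0.545, 1.61 and 9.48 CPM in Doxo hearts (0.85 ± 0.292, SE, adjusted p = 0.0104). A single heart carried that call: without Doxo replicate 13, which had the highest Mmp9, Mmp8, Adamts1 and Adamts4 values and a neutrophil marker sum of 355 CPM, Mmp9 was at 0.48 with an adjusted p of 0.0844.

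Mmp3 (ENSMUSG00000043613, chr9:7445822-7455975), the stromelysin that cuts proteoglycans and activates other MMPs, had 2.73, 7.11 and 10.2 CPM in Ctrl and 4.34, 17.6 and 36.2 CPM in Doxo hearts. Of the 13 Doxo hearts, 10 exceeded all Ctrl hearts (1.55 ± 0.292, SE, adjusted p = 1.51e-05). Mmp11, a stromelysin activated within the cell by furin, did not pass (−0.26).

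The membrane-type MMPs, which act at the cell surface, split as well. Mmp14 (ENSMUSG00000000957, chr14:54431612-54445364), the collagenase that also activates proMMP2 together with Timp2, had 13.1, 17.04 and 22.2 CPM in Ctrl and 15.4, 36.8 and 54.4 CPM in Doxo hearts, with 10 of 13 above the Ctrl range. Its log2 fold change was 1.06 ± 0.164 (SE, adjusted p = 6.45e-07). The study itself named Mmp14 from these same hearts, so this value is not independent evidence of its direction.

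Mmp15 (ENSMUSG00000031790, chr8:95352268-95375080), the closest relative of Mmp14 in domain structure and the most abundant protease per kb in Ctrl hearts, had 97.6, 112 and 126 CPM in Ctrl and 12.9, 30.7 and 127 CPM in Doxo hearts. In Doxo, 12 of 13 hearts lay below the lowest Ctrl heart, and the remaining heart, replicate 6, was the highest. The log2 fold change was −1.43 ± 0.207 (SE, adjusted p = 1.81e-07). Mmp16 went from 0.714 ± 0.308 to 0.344 ± 0.255 CPM (−1.02 ± 0.285, SE, adjusted p = 0.00177), and Mmp17, a GPI-anchored member, had −0.23 and did not pass.

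Among the remaining MMPs, Mmp23, a type II membrane protein without a hemopexin domain, fell from 5.87 ± 2.12 to 2.797 ± 1.42 CPM, with 8 of 13 Doxo hearts below the Ctrl range (−1.06 ± 0.219, SE, adjusted p = 5.61e-05). Mmp27 rose from 0.223 ± 0.192 to 0.472 ± 0.248 CPM, with 2 of 13 hearts above the Ctrl range (1.06 ± 0.388, SE, adjusted p = 0.0154). Its Ctrl level was low as well, so the limit of the filter given for Mmp8 can apply to Mmp27. Mmp19 (−0.55, adjusted p = 0.00418) and Mmp28 (−0.51, adjusted p = 0.0406) passed by adjusted p alone, and Mmp12, the macrophage elastase, did not pass (−0.68). Macrophage markers summed to a median of 233 CPM in Ctrl and 192 CPM in Doxo hearts, and fibroblast markers to 1864 and 851 CPM, with 5 of 7 fibroblast markers called lower. Fibroblast sums ranged from 1071 to 2195 CPM in Ctrl and from 557 to 1992 CPM in Doxo hearts. They were not split by Myl4, which was above 100 CPM in 8 of 14 Ctrl and 5 of 13 Doxo hearts. The part of fibroblast abundance in the falls of Mmp13, Mmp15, Mmp16 and Mmp23 was not tested.

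The 4 inhibitors all passed by adjusted p, and those called rose. Timp1 (ENSMUSG00000001131, chrX:20870166-20874735), the inducible inhibitor, had 0.658, 2.45 and 3.72 CPM in Ctrl and 1.14, 4.41 and 9.38 CPM in Doxo hearts, with 8 of 13 above the Ctrl range (1.23 ± 0.299, SE, adjusted p = 0.000424). Timp3 (ENSMUSG00000020044, chr10:86300372-86349506) had 140, 175 and 215 CPM in Ctrl and 117, 279 and 406 CPM in Doxo hearts (0.67 ± 0.126, SE, adjusted p = 1.56e-05). On the other side, Timp2, the partner of Mmp14, was at −0.53 ± 0.158 (SE, adjusted p = 0.00349), from 119 ± 29.4 to 82.4 ± 33.2 CPM, and Timp4, the inhibitor typical of heart, at −0.42 ± 0.162 (SE, adjusted p = 0.0208), from 50.01 ± 12.5 to 37.4 ± 13.1 CPM. Neither change reached 1.5-fold. Timp1, Timp3 and Timp4 each lie inside a synapsin gene on the opposite strand (Syn1, Syn3 and Syn2), and 21.3% of the exon bases of Timp3 and 1.53% of those of Timp4 overlap synapsin exons. The strand setting of the counting was not given in the sources used here.

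The make-up of the members' RNA changed accordingly. Per kb of exon, Adamts1 accounted for 5.85% of the members' summed level in Ctrl, 24.9% in Doxo and 13.1% in Doxo-NMN hearts on average. Mmp15 accounted for 14.96%, 4.98% and 12.4%, and Timp2 for 21.3%, 11.9% and 16.5%. In CPM not divided by length, the 19 Adamts genes summed to 228 ± 15.8 CPM in Ctrl hearts (SD, n = 14), to 434 ± 184 CPM with Doxo and to 239 ± 41.7 CPM with NMN added (SD, n = 13 each). The 23 Mmp genes summed to 209 ± 10.6, 163 ± 31.3 and 181 ± 21.6 CPM, and the 4 Timp genes to 346 ± 45.9, 403 ± 107 and 319 ± 47.8 CPM.

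The next comparison asked how hearts of mice given NMN differed from those given Doxo alone. In Doxo-NMN vs. Doxo, 11 of 35 members were called, 3 higher (Adamts7, Mmp15 and Mmp23) and 8 lower (Adamts1, Adamts3, Adamts4, Adamts15, Mmp3, Mmp9, Mmp14 and Timp1), where 17.1% of all genes were called, 8.17% higher and 8.88% lower. The comparison shares its Doxo hearts with the previous one. No member separated all hearts of the groups, and 0.0562% of all genes did. Cell markers moved between these groups as well. The median sum of cardiomyocyte markers was 62192 CPM in the Ctrl group, and 52160 CPM with Doxo alone against 68239 CPM with NMN. For fibroblast markers the medians with Doxo alone and with NMN were 851 and 1172 CPM, for endothelial markers 689 and 578 CPM, and for neutrophil markers 17.1 and 9.94 CPM. Against Doxo alone, 2 of 7 cardiomyocyte markers were called higher, 3 of 7 fibroblast markers higher and 1 lower, 5 of 7 tested neutrophil markers lower, and 0 of 6 endothelial markers were called by edgeR. The marker sums were not split by the level of Myl4, and their part in the differences between members was not tested.

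Adamts4 had the largest difference, at −5.34 ± 0.618 (SE, adjusted p = 1.85e-07), and 9 of 13 Doxo-NMN hearts lay below the lowest Doxo heart. Adamts1 was lower by a log2 fold change of −1.45 ± 0.276 (SE, adjusted p = 5.45e-05), Adamts3 by −1.22 ± 0.197 (SE, adjusted p = 6.73e-06) and Adamts15 by −1.19 ± 0.258 (SE, adjusted p = 0.000234). For Adamts1 and Adamts3 every Doxo-NMN heart lay within the Doxo range, which replicate 6 widens to the Ctrl level. Among MMPs, Mmp14 was at −1.23 ± 0.168 (SE, adjusted p = 8.42e-07), with 9.79, 12.9 and 31.1 CPM in Doxo-NMN hearts and 9 of 13 below the lowest Doxo heart. Mmp3 was at −1.14 ± 0.295 (SE, adjusted p = 0.00151), with 2.64, 5.96 and 23.1 CPM. Mmp9 was at −0.72 ± 0.297 (SE, adjusted p = 0.0380), a call lost in 11 of 40 fits that left out a heart, and it was at −0.36 (adjusted p = 0.235) without Doxo replicate 13. Timp1 was the inhibitor that fell (−1.202 ± 0.305, SE, adjusted p = 0.00123), with 1.14, 1.65 and 4.52 CPM, and Timp3 stayed under 1.5-fold (−0.55, adjusted p = 0.000522).

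In the other direction, Mmp15 was higher with NMN (1.07 ± 0.208, SE, adjusted p = 6.89e-05), at 35.1, 93.8 and 130 CPM. Adamts7 was higher by 0.89 ± 0.182 (SE, adjusted p = 0.000124) at 10.7, 23.3 and 28.7 CPM, and Mmp23 by 0.76 ± 0.222 (SE, adjusted p = 0.00392) at 3.30, 4.15 and 7.78 CPM. Adamts10 passed by adjusted p under 1.5-fold (0.56, adjusted p = 0.00109). The collagenases were not called in this comparison: Mmp8 was at −0.86 (adjusted p = 0.149) and Mmp13 at 0.06 (adjusted p = 0.921). Adamts9 (−0.35, adjusted p = 0.225) and Adamts12 (0.21, adjusted p = 0.355) were not called either.

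**Figure D3:**
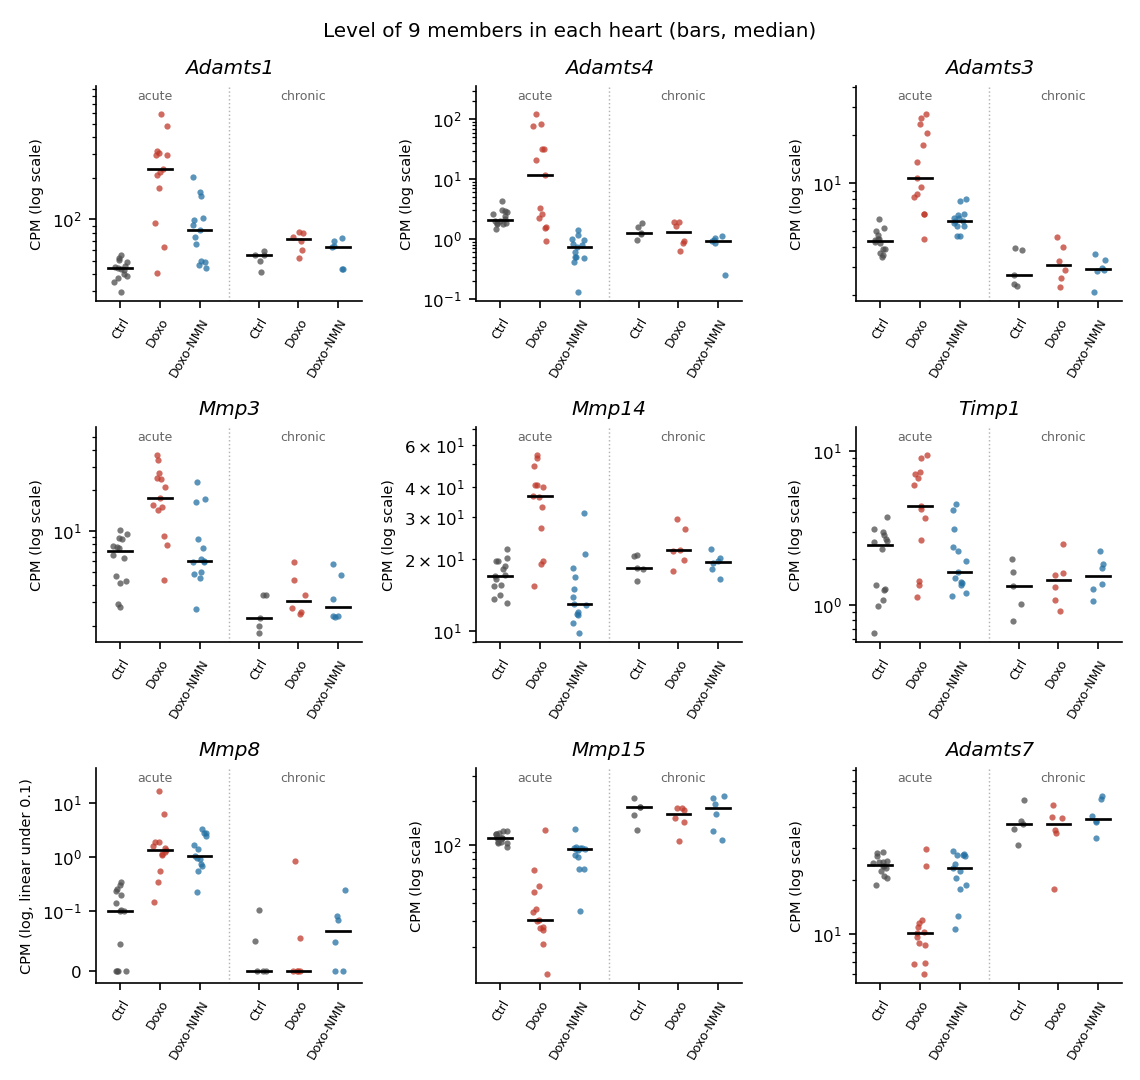
Level of 9 members in each heart (CPM on log axes, linear near 0 for Mmp8) for the 3 groups of each study, with a point per heart and a bar at the median. In the acute study Adamts4 medians run from 2.08 in Ctrl over 11.9 in Doxo to 0.744 CPM in Doxo-NMN, and those of Mmp15 from 112 over 30.7 to 93.8 CPM, whereas the chronic groups overlap.

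Compared with Ctrl, 6 of 35 members were called in acute Doxo-NMN hearts, 2 higher and 4 lower, where 7.11% of all genes were called, 3.31% higher and 3.79% lower. Higher were Mmp8, at 3.49 ± 0.594 (SE, adjusted p = 4.63e-05) with 0.228, 1.03 and 3.28 CPM and 12 of 13 hearts above every Ctrl heart, and Adamts1, at 1.11 ± 0.268 (SE, adjusted p = 0.00217) with 9 of 13 above. For Mmp8 the limit of the low-count filter given above holds here too. Lower were Adamts4 at −1.68 ± 0.568 (SE, adjusted p = 0.0252), Mmp13 at −1.59 ± 0.450 (SE, adjusted p = 0.00800), Adamts9 at −0.94 ± 0.238 (SE, adjusted p = 0.00350) and Adamts12 at −0.67 ± 0.183 (SE, adjusted p = 0.00610). All 13 Doxo-NMN hearts had less Adamts4 than the lowest Ctrl heart, where 1.43% of all genes separated the groups in this way. In the fits over all acute hearts, Adamts4 was thus called above Ctrl in Doxo and below Ctrl in Doxo-NMN. Of the 13 Doxo hearts, however, 7 lay above, 5 within and 1 below the Ctrl range. Mmp15 was not called (−0.37, adjusted p = 0.181), although 12 of 13 Doxo-NMN hearts lay under the lowest Ctrl heart and 1 lay above the highest.

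Because the groups held different numbers of hearts with atrial genes, the acute fits were repeated among hearts below and above 100 CPM of Myl4. Adamts8 changed direction: among hearts with little Myl4, it rose from 0.305, 0.410 and 0.746 CPM in 6 Ctrl to 0.321, 1.21 and 2.81 CPM in 8 Doxo hearts (1.48 ± 0.402, SE, adjusted p = 0.00413). Among those with much Myl4, it fell from 3.14, 5.31 and 10.2 CPM in 8 Ctrl hearts to between 0.981 and 1.58 CPM in 5 Doxo hearts (−2.15 ± 0.291, SE, adjusted p = 7.43e-06). Doxo-NMN vs. Doxo was likewise −1.22 ± 0.345 (SE, adjusted p = 0.00949) among the former and 1.54 ± 0.320 (SE, adjusted p = 0.00168) among the latter. The difference between these subsets was not tested. Adamts19 was at 0.595 ± 0.281 CPM in Ctrl hearts with little and 3.92 ± 1.08 CPM in those with much Myl4, and its fall was called among the latter (−1.63, adjusted p = 0.000145) and not among the former (−0.92, adjusted p = 0.0868). Likewise Adamts9 was called with much (−1.32, adjusted p = 6.22e-07) and not with little Myl4 (−0.41, adjusted p = 0.317). Timp1 was also higher in Ctrl hearts with much Myl4, at 2.86 ± 0.429 against 1.10 ± 0.255 CPM, and its rise was called among both, at 0.93 (adjusted p = 0.00171) with much and 2.07 (adjusted p = 0.000626) with little Myl4. So was Timp2, at 142 ± 11.8 against 87.9 ± 7.59 CPM. In Doxo vs. Ctrl, Timp2 was at −0.29 (adjusted p = 0.0494) with much and −0.51 (adjusted p = 0.000795) with little Myl4, both under 1.5-fold. Adamts1 rose by 2.701 with little and 2.13 with much Myl4, Adamts4 by 3.86 and 2.55, and Mmp15 was at −1.47 and −1.45, all called. Against Ctrl, Adamts4 in Doxo-NMN hearts was at −1.85 (adjusted p = 0.126) with little and −1.66 (adjusted p = 0.172) with much Myl4, and Adamts1 at 1.13 (adjusted p = 0.0752) and 0.88 (adjusted p = 0.0704). Mmp13 (adjusted p = 0.0535 and 0.214) and Adamts12 (adjusted p = 0.0639 and 0.214) were likewise called in neither of these smaller subsets, while Mmp8 and Adamts9 were called in both.

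**Figure D4:**
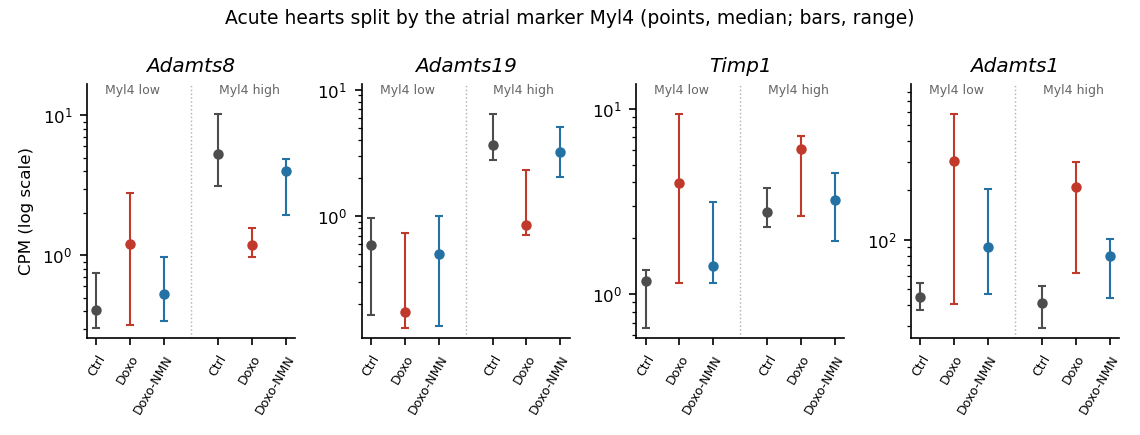
Level of Adamts8, Adamts19, Timp1 and Adamts1 (CPM, log axis) in acute hearts at or under and over 100 CPM of Myl4, with the median and the range of each group. The Doxo median of Adamts8, at 1.21 and 1.19 CPM, lies above the Ctrl median of 0.410 CPM in the low and below that of 5.31 CPM in the high hearts, while Adamts1 lies higher in Doxo in both.

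At day 60 after the fractionated dose, no member was called in any comparison by edgeR, DESeq2 or limma-voom. In Doxo vs. Ctrl, 0 of 31 were called where 0.0602% of all 14960 genes were, and 3 had an unadjusted p under 0.05 (Adamts1, Mmp14 and Timp4), where 7.85% of all genes did. Doxo-NMN vs. Doxo gave 0 calls (0% of all genes) and 3 unadjusted p under 0.05 (Adamts12, Mmp12 and Mmp14) against 2.95% of all genes, and Doxo-NMN vs. Ctrl gave 0 calls and 3 (Adamts8, Adamts9 and Mmp12), where 0.0401% of all genes were called and 4.73% had such a p. The smallest adjusted p over the members were 0.551, 0.999 and 0.977 in these comparisons.

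Adamts1 was at 41.2, 49.9, 54.5, 54.7 and 58.4 CPM in the 5 chronic Ctrl hearts. Doxo hearts had 52.4, 71.3 and 81.3 CPM (lowest, median and highest), and hearts with NMN 43.1, 63.3 and 73.6 CPM. The Doxo range overlapped the Ctrl range and its log2 fold change was 0.42, with a 95% interval from 0.13 to 0.72 (adjusted p = 0.551). For Mmp14 the Ctrl hearts had 16.3, 18.2, 18.4, 20.7 and 20.7 CPM and the Doxo hearts 17.8, 21.8 and 29.4 CPM, a log2 fold change of 0.28 with an interval from 0.05 to 0.51 (adjusted p = 0.603). Timp4 had 22.6, 28.6, 32.9, 36.4 and 39.9 CPM in Ctrl and 26.9, 44.03 and 92.7 CPM in Doxo hearts, a log2 fold change of 0.60 with an interval from 0.11 to 1.09 (adjusted p = 0.602). Mmp15 had 127, 162, 183, 183 and 212 CPM in Ctrl and 108, 164 and 182 CPM in Doxo hearts (−0.14, interval from −0.49 to 0.21, adjusted p = 0.864). Adamts4, at 0.968, 1.20, 1.28, 1.58 and 1.84 CPM in Ctrl and 0.632, 1.302 and 1.95 CPM in Doxo hearts, had −0.04 with an interval from −0.67 to 0.60 (adjusted p = 0.986). All Doxo-NMN hearts had less Adamts9 (9.43, 14.1 and 15.99 CPM) than the lowest Ctrl heart (17.4, 19.4, 21.3, 24.7 and 24.996 CPM), where 0.775% of all genes separated these groups, and its adjusted p was 0.977.

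Whether the Doxo effect differed between the regimens was tested as an interaction, fitted to Ctrl and Doxo hearts from the 2 studies at once, where 36 members passed the filter. The acute minus the chronic effect was called for 7 of them, where 19.3% of 14965 genes were called, 11% higher and 8.33% lower. It was higher for Adamts4 (3.68, adjusted p = 0.0237), Adamts1 (2.13, adjusted p = 0.00298), Adamts3 (1.56, adjusted p = 0.00955) and Mmp14 (0.77, adjusted p = 0.0358). It was lower for Adamts12 (−1.30, adjusted p = 0.0114), Mmp15 (−1.30, adjusted p = 0.0160) and Timp4 (−1.02, adjusted p = 0.0257). Adamts12, the COMP protease, had an acute effect of −0.88 and a chronic effect of 0.42 (adjusted p = 0.673), and Timp4 of −0.42 and 0.60. Mmp14 lost its call in 6 of 38 fits that left out a heart, all of them chronic hearts, and Timp4 without chronic Ctrl replicate 5 or chronic Doxo replicate 2 (−0.93, adjusted p = 0.0600, and −0.73, adjusted p = 0.0659). With only the acute hearts of little Myl4, the level of all chronic hearts, 4 members were called, namely Adamts1 (2.28), Adamts3 (1.65), Adamts15 (1.21) and Adamts12 (−1.45). Adamts4, Mmp14, Mmp15 and Timp4 were not called there. Dose, schedule, day, age, vendor and sequencing site cannot be told apart in this difference.

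**Figure D5:**
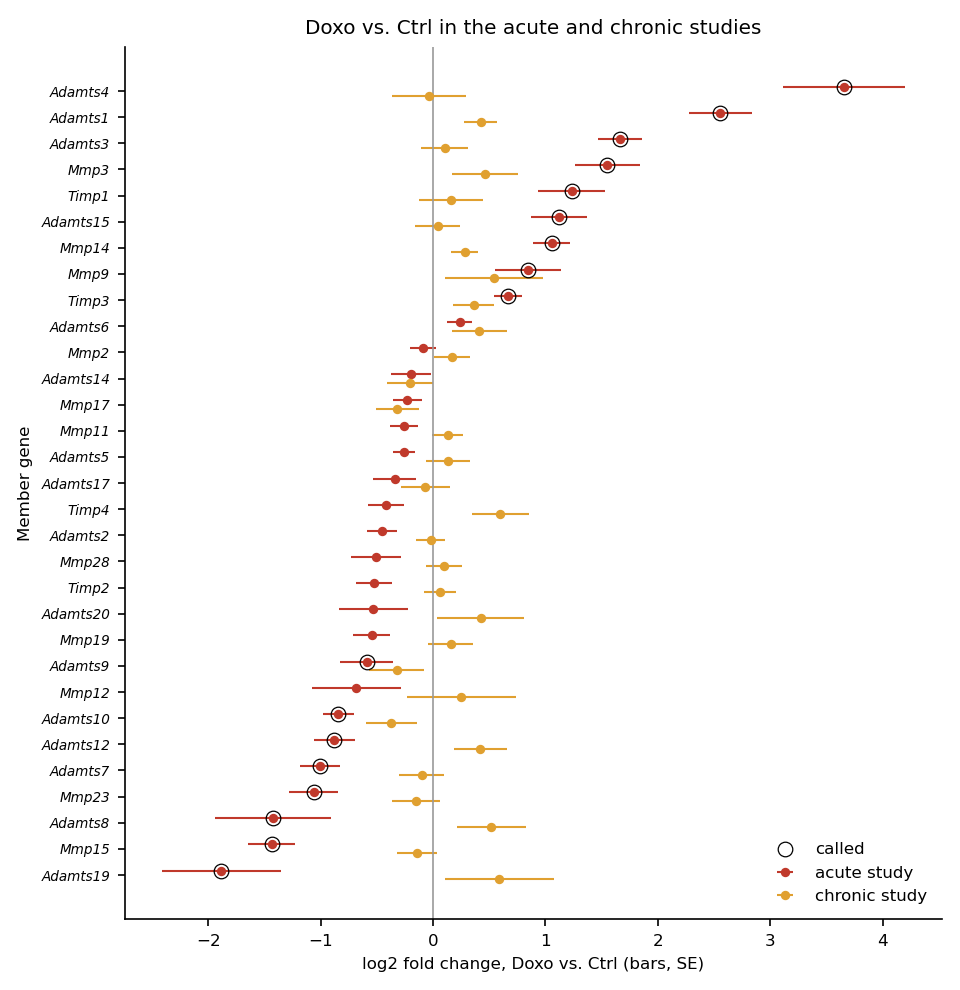
Log2 fold change of Doxo vs. Ctrl with its SE in the acute and the chronic study for the 31 members tested in both. Circles mark members called in acute Doxo vs. Ctrl. Acute values spread from −1.88 (Adamts19) to 3.66 (Adamts4), and chronic values lie between −0.37 and 0.60.

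Genes that act with these proteases were read from lists of known partners, and their calls are counts with no test of a list, to be read against 14.7% of all genes higher and 15.4% lower in acute Doxo vs. Ctrl, and 8.17% higher and 8.88% lower in Doxo-NMN vs. Doxo. Of the plasminogen system, which activates several proMMPs, the urokinase receptor Plaur rose in acute Doxo vs. Ctrl (1.58, adjusted p = 6.07e-07) and urokinase, Plau, fell (−1.28, adjusted p = 5.48e-05). With NMN both were called in the opposite direction against Doxo, Plaur at −1.81 (adjusted p = 1.05e-06) and Plau at 0.80 (adjusted p = 0.0112).

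Of the 7 ADAM sheddases, which free membrane proteins, 1 rose (Adam8, a leukocyte sheddase, 2.07, adjusted p = 1.99e-07) and 3 fell, among them Adam19 (−1.09, adjusted p = 6.22e-07) and Adam17 (−0.91, adjusted p = 9.32e-09), which frees tumor necrosis factor. Of the 7 ADAMTS-like proteins, which carry ADAMTS domains without protease activity, the called ones were Papln (−1.92, adjusted p = 1.43e-06) and Adamtsl2 (−1.87, adjusted p = 5.45e-09), both lower. Among 7 activators, cofactors and clearance factors, Pcsk6, a proprotein convertase, fell (−1.72, adjusted p = 1.15e-08), as did Reck (−0.95, adjusted p = 2.95e-05), a membrane-bound MMP inhibitor, and both were higher with NMN than with Doxo alone (1.24, adjusted p = 1.53e-05, and 0.61, adjusted p = 0.00695). Of 8 other matrix proteases, Ctsl, the lysosomal cathepsin L, rose (1.68, adjusted p = 3.35e-10), and Htra1 (−0.70, adjusted p = 6.12e-07) and Htra3 (−0.72, adjusted p = 2.43e-06) fell.

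On the side of the substrates, 2 of the 5 hyalectan genes were tested, and versican, Vcan, fell (−1.13, adjusted p = 3.17e-06). Of 21 other matrix genes, all tested, 2 rose and 13 fell, with a median log2 fold change of −0.93. The risers were the thrombospondins Thbs2 (1.32, adjusted p = 8.69e-09) and Thbs1 (0.67, adjusted p = 0.0362), and the fall was strongest by adjusted p for fibrillin 1, Fbn1 (−1.24, adjusted p = 7.03e-10), followed by Sparc (−0.99, adjusted p = 1.02e-08). In Doxo-NMN vs. Doxo, 7 of the 21 were higher, such as Col6a1 (1.18, adjusted p = 0.000144), and 2 were lower, Thbs1 (−1.23, adjusted p = 0.000710) and Dcn (−0.62, adjusted p = 0.00308). In chronic Doxo vs. Ctrl, 0 genes of these lists were called by edgeR or DESeq2, and Adam15, Adamtsl4 and Thbs2 were among those that had an unadjusted p under 0.05 by edgeR.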

How the data were processed

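Hearts were frozen, total RNA was extracted, and poly(A) RNA was sequenced on an Illumina NovaSeq. The deposited values are raw counts per gene that the authors made with STAR 2.7.3a and featureCounts 2.0.0 on mouse mm10, as the submitters' processing notes name them, with no normalization or filter. The authors' strand setting was not given in the sources used here. Low counts of the acute table were mostly even (median 73.6% of counts from 1 to 20 per heart, against 40.3% in the chronic table), so counts divided by 2 were tried as an alternative. The study's methods name single-end reads, and whether a fragment entered the acute counts as 2 could not be settled, so acute count sums and the floor of 3 counts may stand for fewer fragments.

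Each heart was placed by its label. Tests used R 4.3.3 with edgeR 4.0.16: filterByExpr by group, TMM, and the quasi-likelihood F-test with the 3 groups of a study in a common fit over all genes, with Benjamini-Hochberg adjustment. Genes were called at an adjusted p under 0.05 and, in the acute study, at least 1.5-fold. CPM are TMM-normalized, and CPM per kb use the exon length of the GENCODE annotation of GRCm38. DESeq2 1.42.0 and limma 3.58.1 (voom with sample weights) were alternatives, beside RLE factors, other filters, robust dispersion, 2-group fits, a replicate block, subsets by atrial gene level and each heart left out. The scripts were tested on simulated counts. No library was a repeat of another: the lowest chi-square per gene of any pair of hearts in a study was 7.83 (acute) and 5.49 (chronic).

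The members, partner lists and marker lists were chosen with earlier results of these data known. Values in full are given for members called in a comparison, the Timp genes, Mmp2, Mmp9 and Mmp14. Total counts limit precision, and the floor of 3 counts covers counting error only. A few results on partner and overlapping genes are not reported here.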

Additional observations from a re-analysis of the deposited data

Results flagged for a closer look

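In the chronic groups of 5 or 6 hearts, the highest or lowest heart was compared with its neighbours by Dixon's criterion in 71 sets of values of a member in a group. A heart stood apart in 15 of them. The criterion flags about 1 in 20 sets of independent, normally distributed values, but these sets share the same hearts, so no excess over chance is read. The other hearts of the Mmp8 sets lay below the chronic floor of 3 counts (0.126 to 0.169 CPM). These 15 values came from 6 hearts. In Ctrl, replicate 1 had the highest Adamts10 (137 CPM) and Mmp23 (15.3 CPM). In Doxo, replicate 2 stood apart for Adamts15 (12.1 CPM), Mmp2 (30.1 CPM, the lowest), Mmp8 (0.862 CPM) and Timp3 (226 CPM), and replicate 1 for Mmp9 (6.004 CPM). In Doxo-NMN, replicate 4 was highest for Adamts10 (94.6 CPM), Mmp16 (1.16 CPM), Mmp23 (18.7 CPM) and Timp2 (126 CPM). Doxo-NMN replicate 1 was lowest for Adamts4 (0.248 CPM) and highest for Mmp8 (0.248 CPM), and replicate 6 was lowest for Adamts12 (0.671 CPM) and highest for Timp4 (70.4 CPM). Adamts10 and Mmp23 stood apart in the same 2 hearts. Marker sums of Doxo replicate 2 also lay away from those of the other Doxo hearts, with fibroblast markers at 752 CPM against 1218 to 1554 CPM, red cell markers at 16.2 CPM against 183 to 355 CPM and neutrophil markers at 9.36 CPM against 1.91 to 4.96 CPM. Doxo-NMN replicate 4 had fibroblast markers at 1995 CPM against 1201 to 1374 CPM. Their part in these values was not tested.

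The effect of Doxo differed between the acute and the chronic study by edgeR's interaction test for 7 of 36 members, near the share of 19.3% called over all genes. The difference in log2 fold change was 3.68 for Adamts4, 2.13 for Adamts1, 1.56 for Adamts3, 0.77 for Mmp14, −1.02 for Timp4, −1.30 for Mmp15 and −1.30 for Adamts12. With only the acute hearts of little Myl4, Adamts4, Mmp14, Mmp15 and Timp4 were not called.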

How the results depend on the processing

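Across the alternatives that kept all hearts or split them by Myl4, the number of called members was 15 to 27 in acute Doxo vs. Ctrl, 10 to 14 in Doxo-NMN vs. Doxo, 2 to 9 in Doxo-NMN vs. Ctrl and 4 to 10 in the difference between the studies. Leaving out a heart gave 20 to 24, 10 to 13, 6 to 8 and 6 to 11 calls, and 0 in each chronic comparison, where the other alternatives also gave 0. The difference between the studies reached 11 calls without acute Doxo replicate 6 and without acute Doxo replicate 7. Doxo-NMN vs. Ctrl gave 3 calls with at least 10 counts in every heart, which left fewer members to test, and 2 among hearts with low and 2 among hearts with high atrial gene counts, which hold fewer hearts. The difference between the studies had 4 calls among hearts with low atrial gene counts, an alternative chosen after seeing the data. Adamts8 reversed among acute hearts with low atrial gene counts, to 1.48 in Doxo vs. Ctrl and −1.22 in Doxo-NMN vs. Doxo. In Doxo vs. Ctrl, 6 members (Adamts8, Adamts9, Adamts19, Mmp9, Mmp13 and Mmp16) lost or reversed their call under at least 1 of these alternatives, and the cause was not tested. All chronic hearts had low atrial gene counts, so that subset equals the whole study, and its opposite could not be run.

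Replicate numbers in the labels were not taken to pair hearts. Same-numbered hearts correlated above 0.1 in 3 of 13, 7 of 13 and 8 of 13 acute and 0 of 5, 2 of 6 and 2 of 5 chronic pairs. Median correlations in the acute comparisons were −0.139, 0.123 and 0.257, against −0.00379, −0.0258 and −0.0836 for other pairs. In the chronic ones they were −0.0768, 0.0273 and 0.0886, against −0.0152, −0.0351 and 0.00946. With the replicate block, 21, 11 and 7 members were called in the acute comparisons, 0 in the chronic ones, and 5 in the difference between the studies, where Adamts4 (2.39, adjusted p = 0.181 by edgeR), Mmp14 and Timp4 lost their call and Adamts7 (−1.01) gained one.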
